A study of Homo sapiens with 2 samples.

Results

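USP22 and the proteins that dock it form the deubiquitinase module of SAGA, a chromatin complex that coactivates transcription. The 6 genes USP22, ATXN7, ATXN7L1, ATXN7L2, ATXN7L3 and ENY2 were followed by symbol in RNA-seq tables of 11976 genes. Of these, 5 were measured in both tables, and ATXN7 is not analysed here. Huh7 cells, a human cell line established from a hepatocellular carcinoma, were given a control shRNA in 1 library and an shRNA against USP22 in the other (the knockdown library), both from total RNA made into messenger RNA libraries. Per the study's design text the shRNA was introduced by transfection. The shRNA sequences and the time after transfection are not given in the sources used here.

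USP22 is the ubiquitin hydrolase of the module. It removes ubiquitin from histones H2A and H2B and is poorly active unless it is held by ATXN7L3, a zinc finger protein that activates it, and ENY2, a small scaffold protein. ATXN7 anchors these proteins to the rest of SAGA, a place that its relatives ATXN7L1 and ATXN7L2 can take. A pair of other hydrolases, USP27X and USP51, use ATXN7L3 and ENY2 as well, without ATXN7, and both are not analysed here.

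Values were read as FPKM, fragments per kilobase scaled to library size, although the tables name no unit, and they summed to 244301 in the control and 218955 in the knockdown library. Depth is unknown, and with 1 library per group there is no replicate error to weigh a difference against, and "higher" or "lower" compares a single library with another. The log2 ratio is taken throughout between FPKM + 1 in the knockdown and FPKM + 1 in the control, a scale that shrinks the ratios of low genes, and "at least 2-fold" requires that ratio to reach 1 or -1 in a gene whose mean is 1 FPKM or more. The mean is over both libraries, so a gene that is low in 1 library can pass through its level in the other. Of the 10195 genes with that mean, 24.1% were at least 2-fold higher in the knockdown library, 12.2% were lower by as much, and the median log2 ratio was 0.098. Among the genes past 2-fold, 66.3% were higher, against 52.9% with TMM scaling, which moved the median to -0.10. All 12 hepatocyte markers were measured, with summed levels of 2453 FPKM in the control and 1684 in the knockdown library. Of these 6 were at least 2-fold lower and none was higher by as much, with a median log2 ratio of -0.93. The ratio was below 0 in 9 and above 0 in APOB (0.95), FGB (0.91) and AFP (0.36). With libraries scaled without mitochondrial genes, 5 were at least 2-fold lower and 2 higher, where 1025 and 2783 of the 10195 genes were. Once ratios were corrected for GC content as described below, 5 were lower, where 8.92% of all genes were, and the median was -0.88. Among 8 blood cell markers 2 were measured, lysozyme (LYZ), which some epithelia also make, at 386 and 93.6 FPKM and CD14 at 1.40 and 0.693, and among 8 endothelial and stromal markers 4, with summed levels of 14.8 and 24.7 FPKM. Of these 4 stromal genes lumican (LUM) was at 1.37 and 8.95 FPKM, COL1A2 at 11.2 and 13.7, COL3A1 at 0.508 and 0.756, and PDGFRB at 1.68 and 1.31. The part of these markers in the results below was not tested.

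ATXN7L3 has a processed copy elsewhere in the genome, ATXN7L3B, which encodes a short protein known to bind ENY2 in the cytoplasm, so the transcripts were searched for sequence that reads could share. Across the longest coding transcript of ATXN7L3 in GENCODE 29 (3811 bases), none of 3762 words of 50 bases occurred in a transcript of another gene, ATXN7L3B included. The words of ATXN7L1 and ATXN7L2 were likewise found in no other gene. Of the words of USP22, 14.7% occurred elsewhere on either strand, 411 of these 761 in AC087393.2, an antisense transcript that overlaps USP22 by 504 bases. The antisense gene CCDC144NL-AS1 overlaps USP22 by 394 bases. ENY2 overlaps the oppositely transcribed NUDCD1 by 62 bases, and 0.452% of its words were shared. No source used here says whether reads were counted by strand, and reads from these overlaps cannot be assigned to one strand.

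USP22 and ATXN7L3 were the members at least 2-fold lower, and their promoters, 250 bases before to 50 after the start, are shown from RefSeq on GRCh38.p14, with capitals at each GGGCGG or its reverse complement CCGCCC, a GC box. The USP22 promoter lies at chr17:21042962-21043261 and the ATXN7L3 promoter at chr17:44199835-44200134, both on the minus strand.
USP22: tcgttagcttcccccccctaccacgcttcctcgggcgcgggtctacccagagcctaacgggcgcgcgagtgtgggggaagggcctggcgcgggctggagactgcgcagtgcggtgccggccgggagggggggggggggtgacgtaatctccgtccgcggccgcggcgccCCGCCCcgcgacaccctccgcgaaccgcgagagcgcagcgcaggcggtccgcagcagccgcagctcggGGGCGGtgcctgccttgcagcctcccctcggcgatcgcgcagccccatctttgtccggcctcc
ATXN7L3: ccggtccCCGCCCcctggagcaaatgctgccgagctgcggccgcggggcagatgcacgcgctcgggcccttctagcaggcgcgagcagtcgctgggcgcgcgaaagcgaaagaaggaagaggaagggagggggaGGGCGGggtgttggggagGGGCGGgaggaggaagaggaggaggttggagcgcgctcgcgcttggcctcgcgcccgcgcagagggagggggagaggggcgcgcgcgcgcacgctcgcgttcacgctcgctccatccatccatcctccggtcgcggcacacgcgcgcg
GC content was 75.7% in the USP22 window and 73.7% in that of ATXN7L3, with 41 and 43 CG dinucleotides, against medians of 58.7% and 14 over 35116 promoters of the same length. The GC box occurred 2 times in the USP22 window and 3 times in that of ATXN7L3, and 45.0% of all promoters held at least 1. ATXN7L2, at a log2 ratio of 0.06, held it in 2 of its 2 listed promoters and ATXN7L1 in 2 of 3. The 2 windows were chosen by the lower ratios of their genes, USP22 is the target of the shRNA, and a link between promoter sequence and ratio was not tested.

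USP22 (ENSG00000124422.11_2) stood at 58.1 FPKM in control and 7.67 FPKM in knockdown cells. The targeted transcript was therefore at 13.2% of its control level in the library labelled as its knockdown. Its log2 ratio was -2.77, and 0.235% of the 10195 genes had a lower one. In the control it was a high transcript, at rank 698 from the highest of 11976 genes, and in the knockdown library it was at rank 4534, above 62.1% of the genes. In a bulk library fewer cells with the transcript and less transcript per cell cannot be told apart.

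Within the USP family of ubiquitin hydrolases, USP22 was the second highest of 42 measured genes in the control, below USP5, at 68.7 FPKM, and above USP19, at 24.6 FPKM. It took 18.9% of the family's summed FPKM in the control and 2.005% in the knockdown library, where it was at rank 16 and USP5 was again first, at 64.9 FPKM. USP22 had the lowest log2 ratio of the family. Of the 38 other members with a mean of at least 1 FPKM, 18 (47.4%) were at least 2-fold higher, against 24.1% of all genes, and 1, USP3, was at least 2-fold lower (2.63%, against 12.2%). Some of the 18, USP53 (0.257 and 2.66 FPKM) and USP47 (0.450 and 4.41 FPKM) among them, were under 1 FPKM in the control. These passed the filter only through their level in the knockdown library. With the GC trend removed 5 of the 38 were at least 2-fold higher, where 8.44% of all genes were, and USP3 alone was lower, where 8.92% were. The median log2 ratio of the 38 was then 0.37 in place of 0.97. The summed level of the 41 others was 249 FPKM in the control and 375 in the knockdown library.

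ATXN7L3 (ENSG00000087152.15_2), the activator of USP22, was at 19.2 FPKM in control and 6.99 FPKM in knockdown cells, a level 2.74-fold lower and a log2 ratio of -1.34. Of all genes, 6.69% had a lower ratio, so ATXN7L3 lay inside the share of 12.2% that was at least 2-fold lower. From a level above 82.7% of genes in the control it went to one above 59.6%. Once ratios were corrected for the GC content of transcripts, as described below, its log2 ratio was -0.82 and no longer past 2-fold.

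ATXN7L3B (ENSG00000253719.3_3), which is not a member and was taken up after its values were seen, was at 23.3 FPKM in control and 10.0339 FPKM in knockdown cells. It was thus 2.32-fold lower, with a log2 ratio of -1.14, and above ATXN7L3 throughout, 1.21 times as high in the control and 1.44 times in the knockdown library. Its transcript is poor in G and C (38.7%), and among the 1014 genes in the lowest of 10 equal groups by GC content 712 were at least 2-fold higher, 3 were at least 2-fold lower, and 2 had a lower ratio than ATXN7L3B. With the GC trend removed its log2 ratio was -2.42, in place 43 from the bottom of 10134 genes, close to USP22 at -2.44 and place 40. The antisense gene AC025257.1 overlaps ATXN7L3B by 375 bases.

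**Figure D1:**
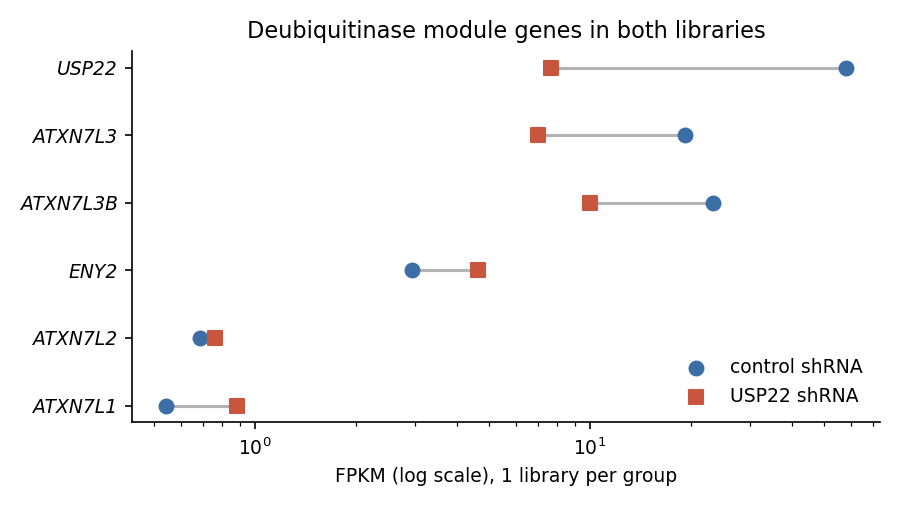
Levels of the 5 measured module genes and of ATXN7L3B, in FPKM on a log axis, with 1 point per library (circle, control shRNA; square, USP22 shRNA). USP22 is at 58.1 and 7.67 FPKM and ATXN7L3 at 19.2 and 6.99, while ENY2, ATXN7L2 and ATXN7L1 lie slightly further right in the knockdown library than in the control.

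ENY2 (ENSG00000120533.12_2), the small scaffold that also serves in mRNA export, was at 2.95 FPKM in control and 4.64 FPKM in knockdown cells. This was 1.57-fold higher, inside the 2-fold rule, with a log2 ratio of 0.51, and 62.3% of genes had a lower ratio. ENY2 shares the lowest GC group with ATXN7L3B, at 38.6%, where the median log2 ratio was 1.34, and 121 of the 1014 genes there had a lower ratio than ENY2. Its direction therefore depended on the treatment of the GC trend, and with the trend removed its log2 ratio was -0.77.

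The anchors ATXN7L1 and ATXN7L2 were low in both libraries. ATXN7L1 (ENSG00000146776.14_2) was at 0.543 FPKM in control and 0.884 FPKM in knockdown cells, a log2 ratio of 0.29, and ATXN7L2 (ENSG00000162650.16_3) at 0.687 and 0.761 FPKM, with a log2 ratio of 0.06. Both have means under 1 FPKM and so stay outside the counts of genes past 2-fold. Each was above few of the genes, ATXN7L1 above 12.8% in either library and ATXN7L2 above 16.3% in the control and 10.6% in the knockdown library. The ATXN7L2 ratio was -0.04 with median centring and with TMM scaling, so it has no direction that holds across scalings.

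All 6 members are thus accounted for by 2 that were at least 2-fold lower, 1 inside 2-fold, 2 under the filter and 1 not analysed here, and no member was higher by 2-fold or more. Over all genes, 12.2% were at least 2-fold lower and 24.1% higher. Of the 2 lower members, USP22 is the target of the shRNA, and ATXN7L3 was inside 2-fold with the GC trend removed (-0.82). Without the filter the median log2 ratio of the 5 measured members was 0.06. In the control the order of levels was USP22, ATXN7L3, ENY2, ATXN7L2 and ATXN7L1, and in the knockdown library it differed only in that ATXN7L1 stood above ATXN7L2. No spread over samples exists by which neighbours in this order could be told apart.

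The proportions among the transcripts differed more than their order. USP22 was 3.03 times as high as ATXN7L3 in the control and 1.10 times in the knockdown library. Relative to ENY2, USP22 stood at 19.7 times in the control and 1.65 times in the knockdown library, and ATXN7L3 at 6.51 and 1.51 times. With the GC trend removed, as described below, ATXN7L3 and ENY2 had near-equal log2 ratios of -0.82 and -0.77, against -2.44 for USP22. Summed over the 5 genes the level was 81.4 FPKM in the control and 20.9 in the knockdown library, and without USP22 it was 23.4 and 13.3 FPKM. USP22 made up 71.3% of that sum in the control and 36.6% in the knockdown library, ATXN7L3 23.6% and 33.4%, and ENY2 3.62% and 22.2%. A lower USP22 level by itself raises the shares of the others, so the ATXN7L3 share was higher although its level was lower. These proportions are of transcripts per length and say nothing of protein.

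Across all genes the ratio followed the GC content of the transcript, at a Spearman rho of -0.70 (10134 genes, taken as a description because genes are not replicates), and the members span a wide range of GC content. By rising GC content they are ENY2 (38.6%), ATXN7L1 (47.4%), USP22 (53.3%), ATXN7L3 (56.9%) and ATXN7L2 (61.2%). In the GC group that holds USP22, 18.0% of 1014 genes were at least 2-fold lower, the median log2 ratio was -0.41, and 3 genes had a lower ratio than USP22. The GC group that holds ATXN7L3 had 22.1% of 1013 genes at least 2-fold lower, a median of -0.54, and 118 genes with a lower ratio than ATXN7L3. For ATXN7L2 the median of its GC group was -0.56, and 857 of 1013 genes there had a lower ratio. With the trend removed, 8.44% of genes were at least 2-fold higher, 8.92% were lower by as much, and of the members USP22 alone was past 2-fold, while ATXN7L2 stood at 0.68 and ATXN7L1 at 0.02.

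**Figure D2:**
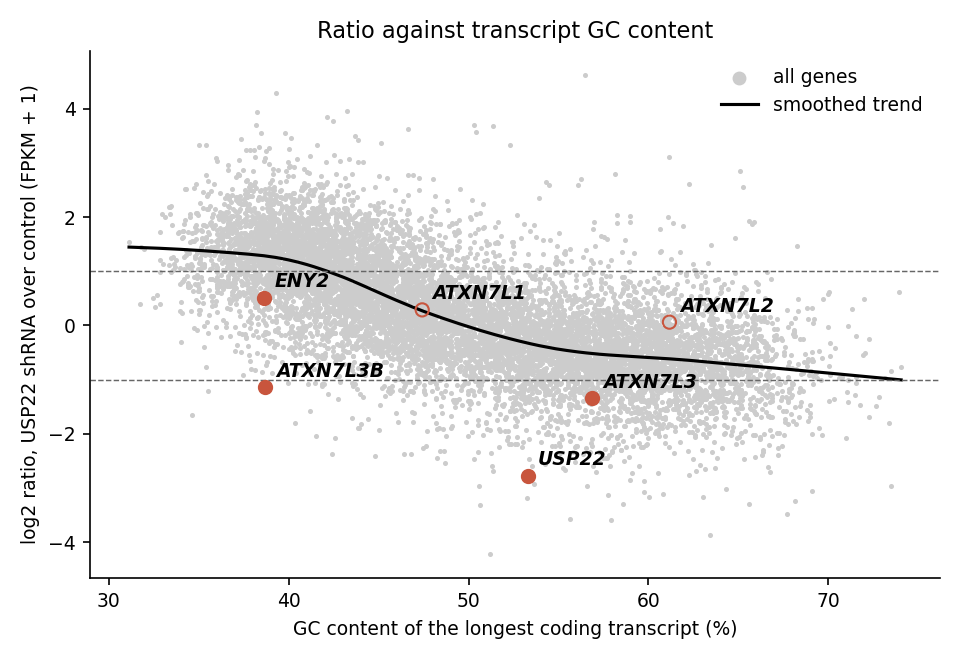
Log2 ratio of USP22 shRNA over control (y axis) against the GC content in percent of the longest coding transcript (x axis), with 10134 genes as grey points, the smoothed trend as a black line and dashed lines at 2-fold. Module genes and ATXN7L3B are red, with open circles for the 2 members under a mean of 1 FPKM. USP22 and ATXN7L3B lie far below the trend, ATXN7L3 and ENY2 below it by 0.82 and 0.77, and ATXN7L2 above it.

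Of 18 SAGA subunits outside the module, 17 passed the filter, of which 3 were at least 2-fold higher and 2 lower, with a median log2 ratio of -0.16 against 0.098 over all genes. The shares, 17.6% and 11.8%, were near those over all genes, 24.1% and 12.2%, for so short a list. The higher ones were the acetyltransferase KAT2B, at 0.489 FPKM in control and 3.31 FPKM in knockdown cells, the histone fold protein TAF9, at 5.07 and 14.7 FPKM, and SUPT3H, at 0.752 and 2.56 FPKM. KAT2B and SUPT3H passed the filter only through their levels in the knockdown library. SF3B5, which SAGA shares with a splicing factor, was lower, at 220 and 62.3 FPKM, as was TAF10, at 10.6 and 3.42 FPKM. KAT2A, the acetyltransferase related to KAT2B, was at 12.7 and 7.73 FPKM, and TRRAP, the scaffold that activators contact, at 11.7 and 8.71 FPKM. With the GC trend removed none of the 17 was at least 2-fold higher, 2 were lower (TAF5L, at -1.44, and SF3B5, at -1.30), and the median was -0.14.

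ENY2 is also a subunit of TREX-2, which links transcription to mRNA export, and 5 of the other subunits were measured. None was past 2-fold in either direction, where 24.1% of all genes were higher and 12.2% lower, and the median log2 ratio was 0.25. The scaffold MCM3AP was at 11.5 FPKM in control and 10.1 FPKM in knockdown cells, and PCID2 at 3.78 and 6.32 FPKM. With the GC trend removed CETN2 (-1.10) and SEM1 (-1.04) were at least 2-fold lower, where 8.92% of all genes were. The median was then -0.65, while PCID2 stood at 0.72 and MCM3AP at 0.14.

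The enzymes that place ubiquitin on H2B, the mark that USP22 removes, and the PAF1 complex that brings them to transcribing polymerase were measured in full. Of the 11 genes, 4 (36.4%) were at least 2-fold higher, against 24.1% of all genes, and none lower, against 12.2%, with a median log2 ratio of 0.53. WAC, an adaptor of the ligase, was at 1.14 FPKM in control and 8.05 FPKM in knockdown cells, and the ligase RNF20 at 2.97 and 8.18 FPKM. Within the PAF1 complex CDC73 was at 1.47 and 8.86 FPKM and CTR9 at 2.06 and 9.94 FPKM. RNF40, the partner of RNF20, was at 16.5 and 11.5 FPKM, and the conjugating enzymes UBE2A and UBE2B were at 4.72 and 6.41 and at 9.48 and 14.2 FPKM. With the GC trend removed 2 were at least 2-fold higher, CTR9 (1.15) and WAC (1.01), where 8.44% of all genes were, and the median was 0.33.

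Transcripts of proteins that have been reported as USP22 substrates were described as a list, because USP22 acts on proteins and the list measures only their mRNA. Of 12 genes 10 were measured, 3 (30%) were at least 2-fold higher and 1 (10%) was lower, shares near the 24.1% and 12.2% over all genes, with a median log2 ratio of 0.59. The Polycomb protein BMI1 was at 0.850 FPKM in control and 8.95 FPKM in knockdown cells, the deacetylase SIRT1 at 0.847 and 5.72 FPKM, and the hypoxia factor HIF1A at 3.95 and 18.3 FPKM. BMI1 and SIRT1 passed the filter only through their levels in the knockdown library. The lower one was MYC, at 15.8 and 6.17 FPKM. The cyclins CCNB1, at 59.9 and 86.0 FPKM, and CCND1, at 48.8 and 86.6 FPKM, and the demethylase KDM1A, at 37.4 and 31.4 FPKM, were inside 2-fold. Correction for GC content gave a median of -0.09. BMI1, at 1.16, was then the member at least 2-fold higher, with none lower, where 8.44% and 8.92% of all genes were.

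USP22 belongs to a set of 11 genes that was assembled as an expression signature of poor outcome across cancers. Apart from USP22, 6 of its genes passed the filter, of which 4 were at least 2-fold higher and 1 was lower, where 24.1% and 12.2% of all genes were. The kinetochore gene NDC80 was at 2.68 FPKM in control and 18.2 FPKM in knockdown cells, the checkpoint kinase BUB1 at 4.33 and 26.3 FPKM, the splicing factor RBM39 at 2.86 and 12.3 FPKM, and the proliferation marker MKI67 at 6.20 and 14.1 FPKM. HCFC1, a transcriptional coregulator, was lower, at 22.8 and 8.48 FPKM. BUB1 (1.40) and NDC80 (1.18) remained at least 2-fold higher with the GC trend removed, where 8.44% of all genes were, and HCFC1 was then at -0.70.

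**Figure D3:**
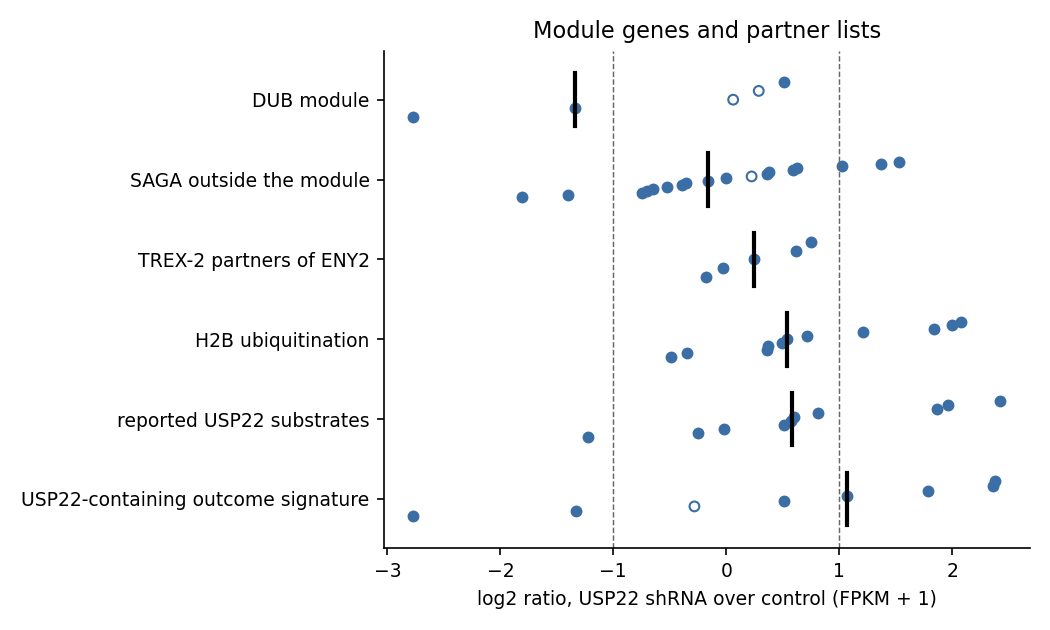
Log2 ratio of USP22 shRNA over control (x axis) for each measured gene of the module and of 5 partner lists (y axis), with filled points for genes that passed the filter, open points for the others, black bars at the median of the filled points and dashed lines at 2-fold. USP22 at -2.77 and ATXN7L3 at -1.34 are the module genes left of the lower line, and 4 of the 11 H2B ubiquitination genes lie right of the upper one.

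The genes whose pair of values was nearest to that of USP22, by distance on the log2(FPKM + 1) scale over the 2 libraries, were GLTPD2 (distance 0.187), E2F1 (0.291), C20orf27 (0.310), MSRB1 (0.379) and F11R (0.388). GLTPD2 was at 58.0321 FPKM in control and 6.61 FPKM in knockdown cells, and E2F1 at 57.6 and 9.60 FPKM. GC content was 53.3% in USP22 and ranged from 47.6% in F11R to 73.5% in GLTPD2 among the 5. With the GC trend removed the log2 ratio of F11R was -2.48, next to -2.44 for USP22, and those of the others lay between -1.97 (GLTPD2) and -1.69 (MSRB1). Nearest to ATXN7L3 were PREB (0.0229), BCL3 (0.0316) and FADS1 (0.0445). Likeness over 2 libraries describes levels only.

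**Figure D4:**
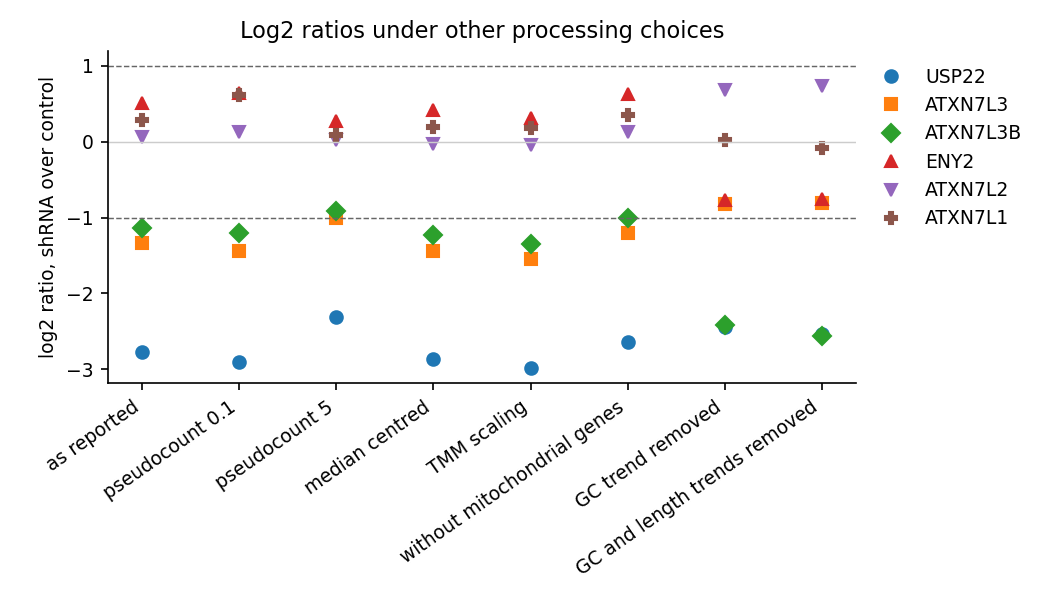
Log2 ratio of USP22 shRNA over control (y axis) for each measured module gene and ATXN7L3B as reported and under 7 other processing choices (x axis), with dashed lines at 2-fold. USP22 stays between -2.98 and -2.32, ATXN7L3 moves inside 2-fold with the GC trend removed, and ENY2 changes sign there.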

How the data were processed

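The authors deposited 1 table per library with gene symbols, Ensembl identifiers and 1 value per gene, read here as FPKM, an assumption because the file headers name no unit. Values are not whole and sum to far less than TPM over all genes would. HISAT2 2.0.4, StringTie 1.3.0 and GRCh37 appear, without their roles, in the submitters' processing notes. The rule by which the authors chose the listed genes is not given here. Low values (under 1 FPKM, 2609 and 1619 of them) times transcript length showed no step of whole reads over 4000 step sizes (best strength 0.0431 and 0.0602, where 1 would be perfect), so no count model was used.

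Log2 ratios used a pseudocount of 1 and a filter at a mean of 1 FPKM. For 7 symbols on 2 rows the higher row was used in the gene lists, while both rows stayed in the totals, shares and GC trend over all genes. GC content and length came from the longest coding transcript in GENCODE 29 on GRCh38, matched by identifier for 11836 genes, and the trend was removed with a lowess curve over a 30% span (statsmodels 0.14.6, Python 3.11.15), checked on simulated data. TMM trimmed 30% of ratios and 5% of levels at each end, unweighted. Shared words were exact matches of 50 bases on both strands, with 100 tried as well.

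Genes named in the text are the members, the list genes at least 2-fold apart (up to 3 at each end), the 3 USP family genes highest in the control and the nearest genes by distance. Others given for context (CD14, the stromal markers inside 2-fold, USP3 and the other hydrolases of the closing section, KAT2A, TRRAP, TAF5L, TREX-2 subunits, RNF20, RNF40, MKI67, UBE2A, UBE2B, substrate genes inside 2-fold, and ATXN7L3B) were chosen after their values were seen. Likewise APOB, FGB and AFP were picked after their values were seen. The members, lists and alternatives were chosen with earlier results of these data known. Some items are not reported here.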

Additional observations from a re-analysis of the deposited data

How the results depend on the processing

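No paired analysis was possible because each group has 1 library, and for the same reason no replicate could be left out. USP22 was at least 2-fold lower under all 7 alternatives run (log2 ratio from -2.98 to -2.32). ATXN7L3 was at least 2-fold lower under 5 of 7 and stood at -0.82 both with the GC trend removed and with GC and length trends removed (-0.819 and -0.815), where the count of members lower was 1 in place of 2. ENY2 was at -0.77 and -0.75 under these choices in place of 0.51. ATXN7L1 was at -0.081 with GC and length trends removed, and ATXN7L2 at -0.04 (-0.0369 and -0.0381) with median centring and TMM scaling. The median of members past the filter was -1.34, became 0.061 with no filter, since ATXN7L1 and ATXN7L2 then enter, and was -2.05 at a mean of at least 5 FPKM, which leaves USP22 and ATXN7L3. ATXN7L3B was at -0.91 with a pseudocount of 5. No member was at least 2-fold higher under any of 10 alternatives, or 1.5-fold higher under the alternative with that rule. Over all genes the count of higher genes ran from 828 (GC and length trends removed) to 3630 (1.5-fold rule). Most alternatives count only the 3 members past the filter, so the absence of higher members says little about the module. The depth behind the low values of ATXN7L1 and ATXN7L2 cannot be judged, because read totals are unknown.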

Other observations

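Values of 5 other ubiquitin hydrolases known to act on histones follow, chosen after their values were seen and not a full list of such enzymes. USP3, which removes ubiquitin from H2A and H2B, was at 4.67 FPKM in control and 1.27 FPKM in knockdown cells (the USP22 shRNA library), with a log2 ratio of -1.32 that was -2.06 once the GC trend was removed. USP16, an H2A hydrolase that acts in mitosis, was at 2.39 and 9.68 FPKM, with log2 ratios of 1.66 and 0.34. USP21, known from mouse as an H2A hydrolase, was at 3.93 and 1.99 FPKM, with log2 ratios of -0.72 and -0.18. USP12 and USP46, related hydrolases known to act on histones H2A and H2B, were at 3.51 and 13.4 FPKM, with log2 ratios of 1.68 and 0.39, and at 2.99 and 16.4 FPKM, with log2 ratios of 2.12 and 0.96.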
